A study of Mus musculus with 2 samples.

Results

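The apolipoprotein cluster of mouse chromosome 9 holds Apoa1, Apoc3, Apoa4 and Apoa5, with Sik3 on its left and Zpr1 on its right. CTCF peaks were taken where the summit lay in or within 50 kb of any of these 6 genes, a rule of position that used no measured value. It found 23 peaks among the 57220 of the study's optimal list, in a window of 370 kb at chr9:45962820-46332643 (mm10). Binding was measured by ChIP-seq with an antibody to CTCF in livers of newborn mice (0 days after birth) of the strain B6NCrl, in 1 group with 2 replicates and no treatment. Per the labels the livers were powdered and pooled over several dissections, both replicates carry the same biosample label, and the sex was not recorded. The spread between the replicates may therefore be technical. The labelled tissue could not be checked against marker genes, since peak lists hold no expression values.

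Apolipoproteins are the protein parts of the particles that carry fat and cholesterol in blood, and the liver makes and secretes them. Apoa1 encodes the main protein of high-density lipoprotein. Apoc3 slows the breakdown of triglyceride-rich particles by lipoprotein lipase, and Apoa5 speeds it. Apoa4 encodes a protein of chylomicrons and high-density lipoprotein. CTCF is a zinc finger protein that reads an asymmetric DNA motif and stops the loop-extruding cohesin complex, preferably when the motif faces the oncoming complex, so the strand of a motif matters. In human cells, CTCF sites within this cluster are known to take part in chromatin loops.

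The sequences below show the best match to the CTCF motif at the peaks on which the results turn. Each is read 5′ to 3′ on the strand of that match from the GRCm38.p6 genome of RefSeq. Capitals mark the best match to the 14-base CTCF core, and 8 bases are given on each side. A peak was said to have the core where this match had at most 2 mismatches, which leaves out the left peak between Apoa4 and Apoa5 (3 mismatches) and the one between Zpr1 and Bud13 (4 mismatches). The first 5 are the peaks within and next to the apolipoprotein genes, from left to right, followed by the shared start of Pafah1b2 and Sik3 and the strong facing pair at the right end. Next come a pair with the same core in repeat-masked sequence and, last, a core without a mismatch.
Apoa1 coding exon, forward strand, chr9:46230024-46230037: ctctaccgCCAGAAGGTGGCGCctctgggc
Between Apoa4 and Apoa5, left, reverse strand, chr9:46246977-46246990: ccctctgaTCCATAGATGGCGCtgtctagc
Between Apoa4 and Apoa5, right, forward strand, chr9:46258115-46258128: cttactgaCCTGCAGGGGGCAGagcctctt
Zpr1 promoter, forward strand, chr9:46272892-46272905: cagacacaCCAGAAGAGGGCGTcagacccc
Between Zpr1 and Bud13, reverse strand, chr9:46282684-46282697: tagctgtaCCACTAGGGGCACAttcttgag
Pafah1b2 and Sik3 promoter, forward strand, chr9:46012587-46012600: cctgttccCCAGAGGGGGGCACtagggagc
Past the ends of Bud13 and 4931429L15Rik, forward strand, chr9:46302287-46302300: taggctggTCACTAGAGGGCAGtatggcat
4931429L15Rik intron 3, reverse strand, chr9:46314666-46314679: gcatgtgtCCAGCAGATGGCAAcatagagc
Pafah1b2 intron, forward strand, chr9:45981521-45981534: cctgcaggCCAGAAGAGGGCACcacatctc
Sik3 intron, forward strand, chr9:46186553-46186566: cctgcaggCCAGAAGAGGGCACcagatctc
Bud13 first intron, forward strand, chr9:46285980-46285993: tttaaaagCCAGTAGGGGGCAGtgacatgg

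Within the cluster, CTCF lay in the last exon of Apoa1 and in the spacer between Apoa4 and Apoa5. No peak of the optimal list lay within 1 kb of a start of any of the 4 apolipoprotein genes. Over all 21938 protein-coding genes, 36.2% had such a peak, and 4 genes are too few to set against that share. The conservative list held a weak peak at the Apoa1 start, with a signal of 19.5. Signals given here are the authors' deposited values, whose scale is not stated. Among all optimal peaks the signal had a median of 71.2. The optimal list was made from the lists of both replicates and the pooled list, so its signal and those of the replicates are not independent.

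The Apoa1 peak (chr9:46229912-46230161) had a signal of 185, higher than 75.0% of the list. It was 93.8 in replicate 1 and 89.3 in replicate 2, and both replicates placed the summit at the same base. The summit lay in coding exon 4 of 4, 1.46 kb downstream of where Apoa1 begins and 1.31 kb from its nearest annotated start. Its core had 1 mismatch and lay 5.50 bp from the summit, within the coding sequence. Apoc3, transcribed toward Apoa1, ends 2.90 kb to the right of the summit.

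Apoc3 and Apoa4, which are transcribed away from each other, had no peak in the gene or at a start. For Apoc3 the nearest peak to a start was the one in Apoa1, at 5.22 kb. For Apoa4 it was the left spacer peak, 6.28 kb downstream of the start and 3.52 kb past the end of the gene (chr9:46246860-46247088). The starts of both genes lay in a gap of 16.9 kb without an optimal peak.

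The left spacer peak was the strongest of those that lie between the starts of Apoa1 and Zpr1. Its signal was 292, higher than 89.1% of the list, with 148 in replicate 1 and 146 in replicate 2. The best core within 50 bp of its summit had 3 mismatches, over the limit of 2 used here, at positions 1, 3 and 4 counted from the 5′ end of the core. Among the 10880 optimal peaks whose best core had 3 mismatches, the median signal was 42.2, and 95.5% had a weaker signal than this peak. No other optimal peak had the same 14 bases as its best core.

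The right spacer peak (chr9:46257973-46258256) was weak, although its core had only 1 mismatch. Its signal was 19.3, with 8.17 and 10.3 in replicates 1 and 2, and the replicate 1 summit lay 62.0 bp away. Of the 76 optimal peaks with these same 14 bases, 73 were stronger, and their median was 154. At the limit of 2 mismatches, the spacer thus held a strong peak without the core and a weak peak with it. At a limit of 3, both peaks would have the core.

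Apoa5 had no peak in the gene. The nearest to its start lay 3.82 kb away, past its end, and this was the Zpr1 promoter peak. Zpr1 encodes a zinc finger protein and is transcribed in the same direction. The peak (chr9:46272802-46272985) had its summit 162 bp upstream of the Zpr1 start and 983 bp past the end of Apoa5. Its signal was 151, with 67.1 in replicate 1 and 82.1 in replicate 2, so it ranked 19592 in the first list and 15792 in the second. A further peak without the core lay in the gap of Zpr1 and Bud13, a gene of pre-mRNA splicing, 68 bp past the end of Zpr1 and 297 bp from a Bud13 start (chr9:46282611-46282814). Its signal was 181 (97.5 and 83.7 in replicates 1 and 2), and its best core had 4 mismatches.

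**Figure D1:**
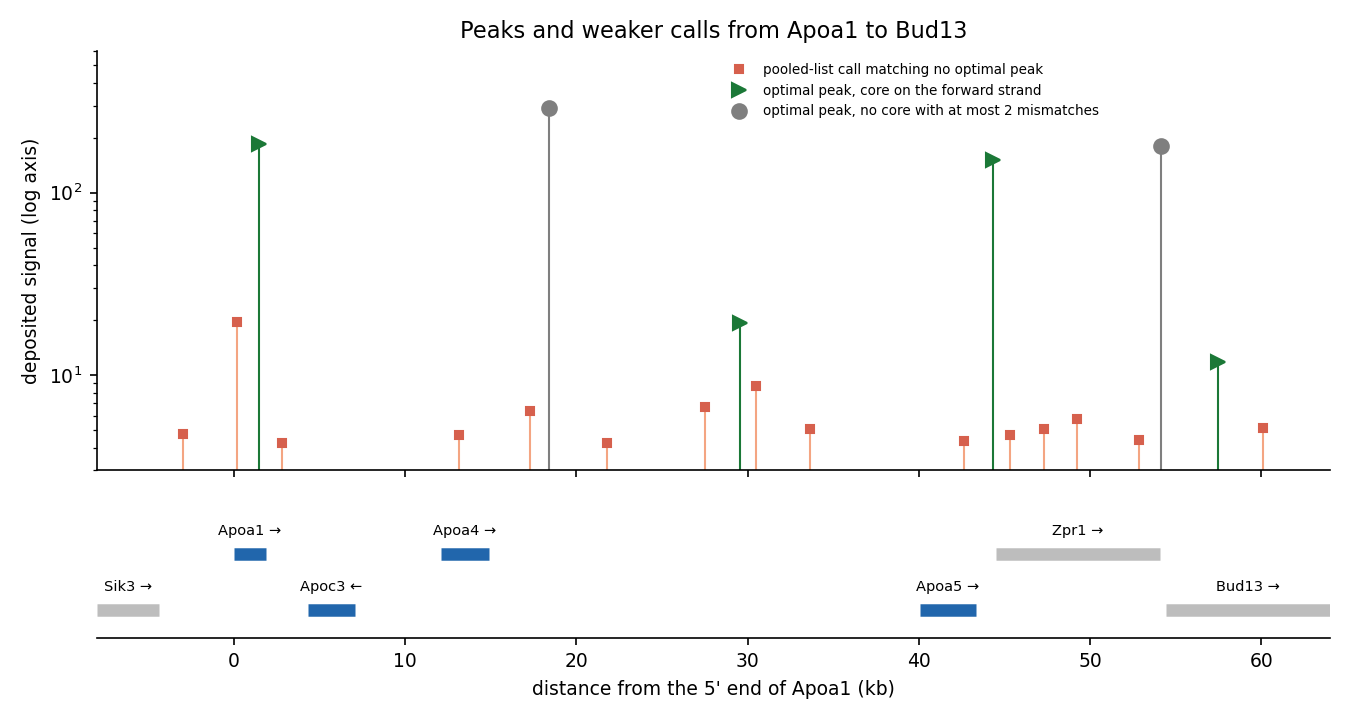
Deposited signal (log axis) of optimal peaks and of pooled-list calls that match no optimal peak. The x axis is distance from the 5′ end of Apoa1 in kb, with protein-coding genes below (apolipoprotein genes in blue). The Apoa1 exon peak (185) and the left spacer peak (292) stand on either side of the Apoc3 and Apoa4 starts, and the call at the Apoa1 start (19.5) belongs to no optimal peak.

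Sik3, a kinase of the AMPK family with roles in metabolism and sleep, is transcribed toward Apoa1. It shares its start region with 1 annotated transcript of Pafah1b2, a gene for a subunit of an enzyme that inactivates platelet-activating factor. The peak there (chr9:46012486-46012715) had its summit 220 bp upstream of the Sik3 5′ end and 90 bp from a Pafah1b2 start, in the 5′ UTR of a Pafah1b2 transcript. Its signal was 246, with 126 in replicate 1 and 121 in replicate 2. Sik3 and Zpr1 were thus the members with a promoter peak, 2 of 6 genes, where 36.2% of 21938 protein-coding genes had one. The same genes had one when only the 5′ end of each gene was counted, where 28.3% of all protein-coding genes did.

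Inside the 211 kb of Sik3 lay 7 peaks, unevenly spaced. The first, in intron 1 and 1.56 kb from an annotated start, had a signal of 104 (53.7 and 49.9 in replicates 1 and 2) and a best core with 3 mismatches. Peaks were sparse to the right of it, with gaps of 57.7, 77.2 and 35.9 kb, and both peaks between those gaps were below the list's median (signals of 44.2 and 28.3). Toward Apoa1 a group of 3 peaks was spaced 1.16 and 5.28 kb apart. The leftmost had a signal of 137 (77.5 and 58.4 in replicates 1 and 2), the middle one 91.5 (49.6 and 40.9) and the right one 90.8 (48.1 and 42.8). The last peak before Apoa1, in an intron of most Sik3 transcripts and the 3′ UTR of a short one, was weak, with a signal of 13.9 (6.90 and 6.82 in replicates 1 and 2). From there to the peak in Apoa1 ran 27.3 kb without an optimal peak, which held the Sik3 end and the Apoa1 start.

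The strongest peaks of the window lay outside the apolipoprotein genes. On the left, a peak of 320 (168 and 153 in replicates 1 and 2) lay in an intron of only 1 annotated Pafah1b2 transcript. On the right a peak 3.18 kb past the end of Bud13 had 345 (177 and 170), and intron 3 of 4931429L15Rik, a protein-coding gene known by its clone name, held one of 379 (200 and 179). This last value was higher than 96.3% of the list. In all, 13 of the 23 peaks were above the list's median and 3 were in its strongest 10%. The members ran from 11.8 to 379 with a median of 91.5.

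**Figure D2:**
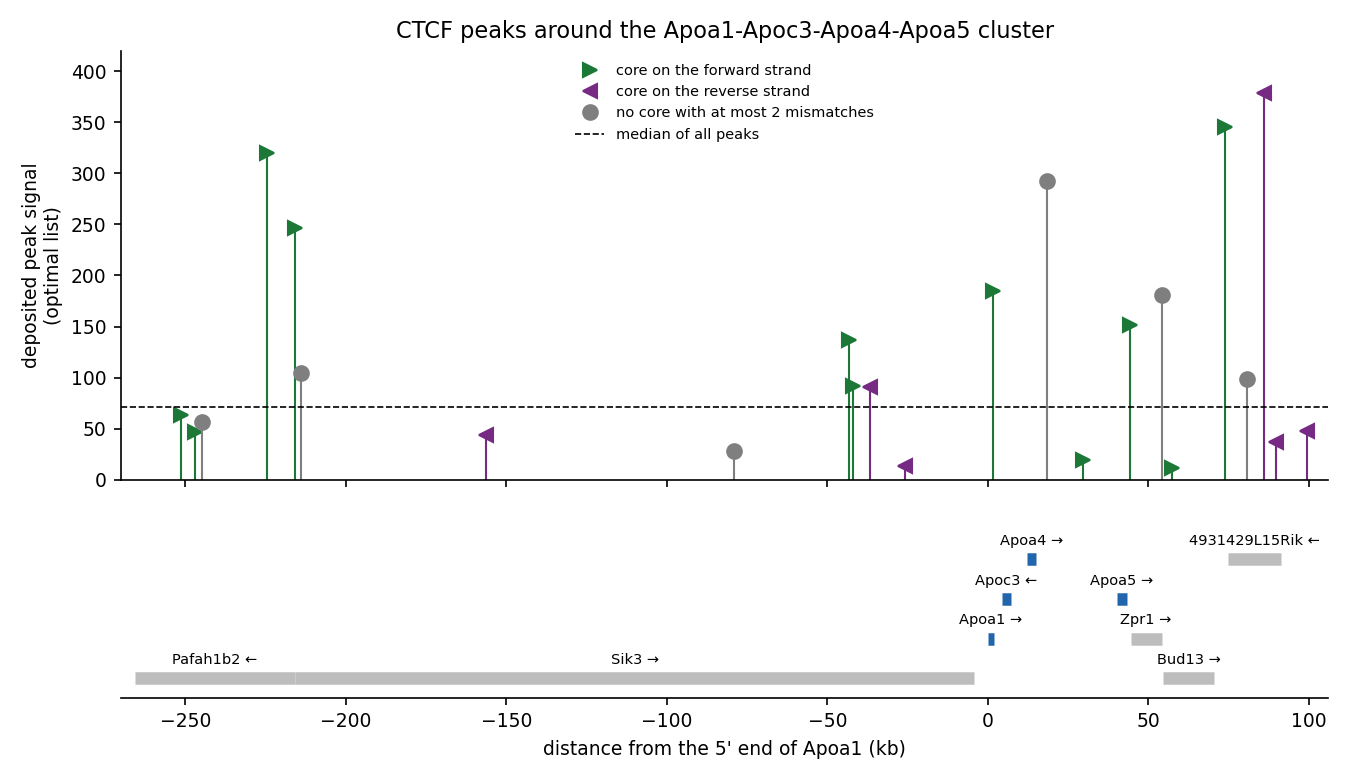
Deposited signal of the 23 peaks against distance from the 5′ end of Apoa1 in kb, with triangles for the strand of the core, grey circles for peaks without it and protein-coding genes below. Tall peaks stand at the left end (320 and 246), in the apolipoprotein spacer (292) and at the right end (345 and 379), and the peaks of 44.2 and 28.3 stand alone in the middle of Sik3.

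Peaks were denser here than on the autosomes as a whole. The window held 62.2 peaks per Mb, compared with 25.9 on chromosome 9 and 22.6 on all autosomes. The density was 56.8 with the strongest 57220 peaks of either replicate alone. Neighbouring summits were between 1.16 and 77.2 kb apart, with a median of 9.77 kb. At the 50 kb limit, the outermost peaks counted had signals of 63.4 on the left and 47.5 on the right, and the nearest ones left out had 81.3 and 248.

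Of the 23 peaks, 6 lay within 1 kb of a start of any annotated transcript, where 20.6% of all optimal peaks did. Besides those at Sik3 and Pafah1b2, Zpr1 and Bud13, they were a second Pafah1b2 peak at a 1-exon noncoding transcript (signal 56.9) and a pair at the noncoding genes Gm39329 (36.7) and 4930448E22Rik (47.5). The promoter peaks had a median signal of 104 (36.7 to 246), and the other 17 had 91.5 (11.8 to 379). Over the whole list the medians were 58.8 at promoters and 74.6 elsewhere.

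The CTCF core was found at 17 of the 23 peaks (73.9%, exact 95% interval 51.6 to 89.8, counting error over peaks only), where 71.2% of all optimal peaks had it. The share was near that of the whole list. The interval treats the 23 peaks as independent draws, although neighbours along 1 stretch of DNA are not replicates. Of these 17 cores, 2 had no mismatch, 8 had 1 and 7 had 2. The 6 peaks without the core had a median signal of 101 (28.3 to 292), and the 17 with it had 90.8 (11.8 to 379). Of those 6 peaks, 5 had 3 mismatches, just over the limit. Over the whole list the medians were 35.7 for peaks without the core and 98.8 for peaks with it. With so few peaks and overlapping ranges, the order in the window was not tested against this.

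Both peaks with a perfect core were weak. Over the whole list, 5500 peaks had a perfect core and their median signal was 228. The peak in the first intron of Bud13 (chr9:46285887-46286170) had 11.8, and none of those 5500 had a lower signal. It was 8.51 in replicate 1 and 5.59 in replicate 2, ranked 57723 and 75679, and the conservative list did not hold it. Its core lay 42.5 bp from the summit, and the replicates placed their summits 160 bp apart. At the other, in the first intron of 4931429L15Rik (chr9:46318015-46318298), the core lay 0.5 bp from the summit. Its signal was 36.7 (16.9 and 20.2 in replicates 1 and 2), and 5.85% of perfect-core peaks were weaker. DNA methylation and chromatin state, which can limit CTCF at a good motif, were not measured in these files.

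**Figure D3:**
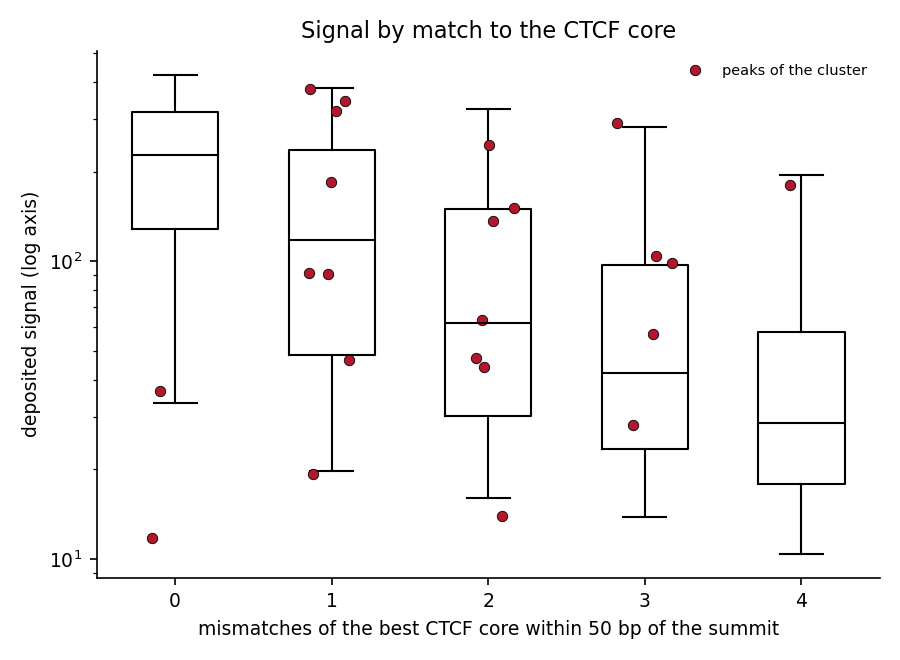
Deposited signal (log axis) by the number of mismatches of the best CTCF core, with boxes for all optimal peaks (line, median; box, quartiles; whiskers, 5th and 95th percentiles) and red points for the peaks of the window. The 2 red points at 0 mismatches (11.8 and 36.7) lie far below that box's median of 228, and the points at 3 and 4 mismatches include 292 and 181.

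Counted with at most 2 mismatches, cores ran in strand blocks. To the left of Sik3 and at its start, all 4 cores were on the forward strand. Within Sik3, 2 cores were forward and 3 reverse. From Apoa1 to beyond Bud13, all 5 cores (Apoa1 exon, right spacer, Zpr1 promoter, Bud13 intron and the peak past Bud13) were on the forward strand, and all 3 beyond that were on the reverse strand. The strongest peaks of the window, of 345 and 379, stood at this change of strand and faced each other across 12.4 kb. The forward block from Apoa1 included the weak peaks of the right spacer (19.3) and the Bud13 intron (11.8). Not counted in it were the stronger left spacer peak (292) and the peak between Zpr1 and Bud13 (181), whose best matches were reverse. With at most 3 mismatches, 12 of 22 cores were forward, and the left spacer peak interrupted that block.

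Of the 16 pairs of neighbouring cores, 11 pointed the same way (68.8%), 3 toward each other and 2 apart. Over the whole list, 52.0% of 36967 neighbouring cores at most 200 kb apart pointed the same way, 23.4% toward each other and 24.6% apart. Neighbours along 1 stretch of DNA are not replicates, and no test was run. A divergent pair enclosed the Apoa1 start, with a reverse core at the weak last peak in Sik3 (13.9) and the forward core in Apoa1 (185). The Apoc3 and Apoa4 starts, the Apoa5 start and the Zpr1 start each lay between forward cores. Each of these pairs had a weak peak on at least 1 side, in the right spacer (19.3) or in Bud13 (11.8). At 3 and 4 mismatches, the left spacer peak and the peak between Zpr1 and Bud13 matched best on the reverse strand.

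Some cores lay in repeats. The core was wholly soft-masked as repeat sequence at 4 of the 17 peaks, where 24.7% of all 40742 cores were. The mask does not name the repeat. In mouse, SINE elements of the B2 family are known to have spread CTCF motifs. The Pafah1b2 and Sik3 intron peaks shown above as a pair had the same 14-base core. They matched at 29 of the 30 bases printed and at 58 of 114 bases when 50 bases were taken on each side without gaps. This core was the best match of 1428 optimal peaks, all 1428 in masked sequence, with a median signal of 51.6. The pair had signals of 46.5 and 91.5.

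The Zpr1 promoter core also lay in masked sequence. Its 14 bases were the best match of 816 optimal peaks, all of them masked, with a median signal of 39.4. At 151 the Zpr1 peak was stronger than 94.0% of the others in this group, with 49 above it. By contrast, the 14 bases at the Apoa1 exon were the best match of 66 optimal peaks, 1 of them masked, with a median of 173. This comparison of identical cores, like the repeat counts, was added after the sequences had been seen.

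Among the 17 cores, position 5 was mismatched in 7, position 3 in 5, position 14 in 4, position 1 in 3, and positions 4, 6 and 11 in 1 each. Over 39350 peaks with a single best core, position 5 was also the one most often mismatched (33.4%), followed by position 14 (21.1%) and position 3 (15.5%). At the Apoa1 exon the only mismatch was at position 5, and at the right spacer peak it was at position 3.

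All 23 peaks had a match within 100 bp in both replicate lists, where 97.1% of all optimal peaks did. Signal in replicate 1 divided by that in replicate 2 lay between 0.742 and 1.52 (median 1.04), and over the whole list the median was also 1.04 (5th to 95th percentile, 0.604 to 1.81). The summits of the 2 replicates lay a median of 10 bp apart, compared with 9 bp over all peaks. When only the strongest 57220 peaks of each replicate were used, 20 of the 23 matched in both. The share of all optimal peaks at this setting was not counted, so 20 of 23 cannot be called high or low. The others were the weak peaks in Sik3 (13.9), the right spacer (19.3) and Bud13 (11.8), of which the spacer peak was lost in replicate 1 alone.

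**Figure D4:**
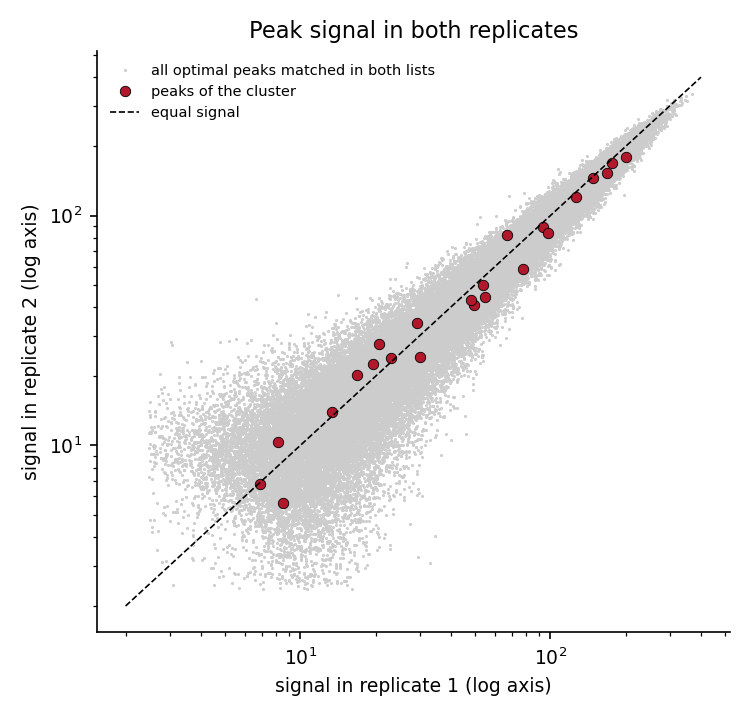
Deposited signal in replicate 1 (x) and replicate 2 (y), both on log axes, for all optimal peaks matched in both lists (grey) and the 23 peaks of the window (red), with the dashed line at equal signal. The red points follow the grey cloud, with ratios from 0.742 to 1.52.

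The Apoa1 start carried a weak call that differed between the lists. A peak at chr9:46228639-46228922, with its summit 201 bp downstream of the 5′ end and 60 bp from an annotated start, had a signal of 19.5 in the pooled list, 10.4 in replicate 1 (rank 52292) and 7.41 in replicate 2 (rank 61526). The conservative list held it and the optimal list did not. With the conservative list, or with replicate 1 alone, 3 of the 6 genes had a promoter peak, Apoa1 being the added gene. The shares of all protein-coding genes at these settings were 34.7% and 36.4%. The best core within 50 bp of its summit had 3 mismatches. The 2 IDR lists differed in this way elsewhere too, and 8.44% of the conservative peaks had no optimal summit within 100 bp.

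The other apolipoprotein starts held less. Within 1 kb of a start, Apoa5 had a call of 4.79 in replicate 2 alone. Apoc3 and Apoa4 had none in the pooled list or in either replicate list. The share of all genes with such a call was not counted, so having none cannot be read as a trait of these starts. The pooled list, which runs to weak calls, held 108 of its 299865 summits in the window. This was 292 per Mb, beside 119 on the autosomes, so calls of this list were denser here too. Of the 108, 85 matched no optimal peak and had a median signal of 5.31. The unmatched share over the whole pooled list was not counted. RefSeq promoter windows, from 250 bases before to 50 after a start, were given for 5 of the 6 genes, not Apoc3. A core with at most 2 mismatches was found in those of Sik3, Zpr1 and Apoa1, and in 14.4% of all 32841 windows. The Sik3 and Zpr1 matches are the cores of their promoter peaks. The match at Apoa1 (chr9:46228482-46228495) lay outside every optimal peak. In the windows of Apoa4 and Apoa5 the best match had 3 mismatches.

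HNF4, a nuclear receptor of hepatocytes, is a known activator of these apolipoprotein genes. Its site was sought as CAAAGTCCA or CAAAGGTCA, exact and on both strands, within 50 bp of each summit. None of the 23 peaks held either, and 0.238% of all optimal peaks did. None of the 5 genes with promoter windows held these letters there either, and 0.950% of all windows did. Apoc3 had no window, so its promoter was not searched. Because both shares are so low, finding none among so few peaks and genes cannot show that sites are absent. Sites that differ from these letters were not sought.

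The other groups compared, 3 sets of liver genes for secreted proteins, were taken with the same 50 kb rule. The Apoe-Apoc cluster, with its neighbours Tomm40 and Clptm1, had 22 peaks at 120 per Mb, the albumin family 13 at 39.0 per Mb and the fibrinogen cluster with its neighbours 16 at 35.6 per Mb. Their median signals were 91.8, 68.4 and 102, beside 91.5 here. The core was found at 77.3%, 76.9% and 50% of their peaks. Of the 11 genes for secreted proteins in these groups, Apoe (90.9) and Afp (298) had a promoter peak (18.2%, beside 36.2% of all protein-coding genes). Any annotated start counted here, internal ones included. For Afp the 5′ end was not examined separately. Peaks of 1 locus are not replicates, so these differences were not tested.

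**Figure D5:**
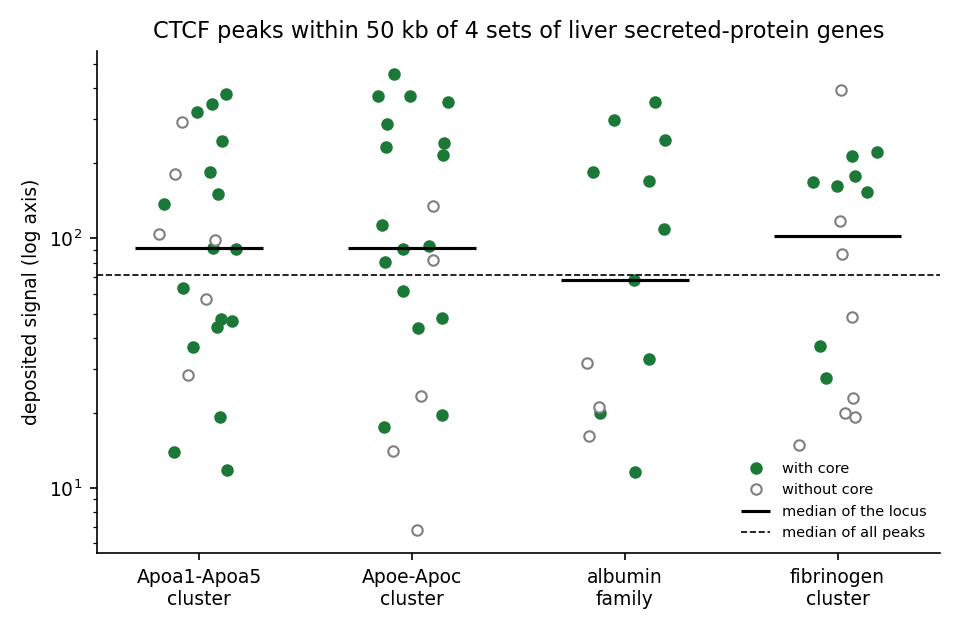
Deposited signal (log axis) of single peaks within 50 kb of 4 groups of genes, filled where the core was found and open where it was not, with a bar at each group's median and a dashed line at the median of all peaks. The groups overlap over most of their range, with medians of 91.5, 91.8, 68.4 and 102 from left to right.

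Promoter peaks at other genes of lipoprotein metabolism were counted in 4 lists, beside the 36.2% of all protein-coding genes. Of the other apolipoprotein genes 3 of 14 had one (21.4%). These were Apob, the structural protein of very-low-density lipoprotein (329, near an internal start and none at the 5′ end), Apoe, the remnant ligand (90.9), and Apoh (22.2). Of genes for particle assembly, lipases and lipid transfer 5 of 14 had one (35.7%). The strongest were at Mttp, which loads lipid onto Apob (275), at the lysosomal lipase gene Lipa (259, and 71.1 at the 5′ end) and at the lipase maturation factor Lmf1 (69.1).

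Receptor and transporter genes had a promoter peak in 6 of 11 cases (54.5%), among them the very-low-density lipoprotein receptor Vldlr (78.1) and the fatty acid transporter Cd36 (64.5, none at the 5′ end). Genes of regulators of apolipoprotein expression had one in 10 of 18 cases (55.6%). The strongest were at the oxysterol receptor Nr1h3 (354, none at the 5′ end), the hepatocyte and myeloid factor Cebpa (286) and the glucose-responsive factor Mlxipl (179, and 16.5 at the 5′ end). Hnf4a had none. The lists are small and no test was run on them.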

How the data were processed

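Per the labels, the deposited files are 5 CTCF peak lists (narrowPeak, mm10): 1 per replicate, 1 from the pooled alignments, and a conservative and an optimal list derived from these by IDR (irreproducible discovery rate), as the accompanying text files state. The aligner, the peak caller, its thresholds and the scale of the signal were not given in the sources used here. Values of the deposited signal (column 7) were read as they stand, and the summit is the deposited start plus the deposited offset. Depth is unknown, so no interval on a signal is given. Control libraries were not used here.

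From these, peaks on assembled chromosomes (57197 of 57220 in the optimal list) were set against GENCODE M21 and the RefSeq GRCm38.p6 genome, of the same assembly as mm10. Summits within 100 bp were matched. The core search covered 50 bp on each side of a summit and both strands, allowing 2 mismatches. A promoter peak lies within 1 kb of any annotated start. The core search and the matching were tested on simulated data (Python 3.11.15, numpy 2.4.6, pandas 2.3.3, pysam 0.24.0).

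With 1 group, no test between groups exists, and results are descriptions beside the whole list. Alternatives were the conservative list, each replicate alone, the stronger part of the list, other distances and other limits on mismatches. Named are the 6 genes, the genes next to each peak, per list the 3 genes whose promoter peak was strongest and the peaks next to the 50 kb limit. Some items that this rule names are not reported here. Members and lists were chosen with earlier results of these data known.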

Additional observations from a re-analysis of the deposited data

How the results depend on the processing

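The number of peaks was 24 with the conservative list (64.9 per Mb). It was 16 within 20 kb (51.6 per Mb) and 27 within 100 kb of the genes (57.5 per Mb). The 50 kb rule, with 62.2 per Mb, thus gave the highest density among these distances. The number fell to 13, or 35.2 per Mb, when only the stronger part of the list, from its median signal up, was used. The autosomes then held 11.3 per Mb. With 1 replicate left out, in turn, the number was 21 both times and the median percentile of signal ran from 56.1 to 60.1, beside 56.5 in the optimal list. At most 1 mismatch left 10 peaks with the core, and 3 mismatches gave 22. Of the 57197 peaks of the whole list, the best core had 0 mismatches in 5500 and 1 in 16452. It had 2 in 18790 and 3 in 10880. Within 5 kb of a start, 4 member genes (Apoa1, Apoa5, Sik3 and Zpr1) and 41 of the 57 genes of the lipoprotein lists had a peak, beside 2 and 24 within 1 kb. The share of all protein-coding genes rose to 56.3% at that distance. No paired analysis was possible because the series has 1 group and no test between groups. No read counts were used, so what depth limits could not be measured.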
